A study of Mus musculus with 18 samples.

Results

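The 9 genes described here encode 7 interferon regulatory factors (Irf1, Irf2, Irf3, Irf5, Irf7, Irf8 and Irf9) and 2 signal transducers and activators of transcription (Stat2 and Stat3). They were taken by name, and all 9 were found among the 11243 protein-coding genes counted. The cells were RAW264.7, a mouse macrophage line established from a virus-induced tumour, so that every group came from a single immortal line and not from separate animals. Control cells received the vehicle, DMSO, with a duration that the labels leave out. The second group received 500 ng/mL LPS, a bacterial surface lipid sensed by Toll-like receptor 4, for 6 h. The third group, LPS and torin1, received the same LPS in combination with 100 nM torin1, which blocks the active site of mTOR kinase, for 6 h. Pretreatment with torin1 began 15 min before the LPS. Total mRNA and polysome-associated mRNA, which came from the pooled heavy fractions of a sucrose gradient, were sequenced from each lysate in 3 experiments, giving 18 libraries from 9 lysates. No torin1 group without LPS was analysed here.

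IRFs 3, 5 and 7 wait in the cytoplasm until kinases downstream of Toll-like receptors phosphorylate them, after which they enter the nucleus and switch on type I interferon genes. Secreted interferon then binds its own receptor, and STAT2 and IRF9 enter ISGF3, the complex that turns on interferon-stimulated genes. Irf7 and Stat2 are themselves such genes, and this closes a positive loop. Production of IRF7 protein is known to be held back by the 4E-BP repressors of cap-dependent translation, which mTOR inactivates, and by Oasl1, so that a separate look at total and polysome-associated mRNA is of interest for this gene.

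ISGF3 and the IRFs recognise the interferon-stimulated response element (ISRE), searched here as GAAANNGAAA, and STAT dimers recognise the gamma-activated site (GAS), searched as TTCNNNGAA, both on either strand of the 250 bases ahead of each RefSeq start on GRCm38.p6. All 9 genes matched RefSeq symbols, and 3 of them had 2 annotated starts, which gave 12 windows. The ISRE letters were present in 2.98% of 32851 windows of all genes and the GAS letters in 7.02%. Stretches of 4 genes are printed 5′ to 3′ on the gene's strand. They are Stat2 and Irf2, which hold ISRE letters, Irf1, picked by name among the genes with GAS letters, and Irf7, which moved with Stat2. Capitals mark the ISRE letters in Stat2, the GAS letters in Irf1 and both in Irf2, where the GAS match is the more 3′ of the pair. The matches began 222 bases ahead of the start in Stat2, 90 in Irf1 and 241 for the ISRE in Irf2. The stretches lie at chr10:128270248-128270330 (plus strand) for Stat2, chr11:53769879-53769977 (plus) for Irf1, chr8:46739495-46739558 (plus) for Irf2 and chr7:141266425-141266524 (minus) for Irf7.
Stat2: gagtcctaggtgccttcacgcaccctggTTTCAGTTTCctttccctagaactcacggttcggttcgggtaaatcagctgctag
Irf1: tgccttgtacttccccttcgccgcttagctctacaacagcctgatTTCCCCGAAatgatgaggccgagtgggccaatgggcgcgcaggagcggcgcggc
Irf2: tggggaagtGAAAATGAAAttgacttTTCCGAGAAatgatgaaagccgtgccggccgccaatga
Irf7: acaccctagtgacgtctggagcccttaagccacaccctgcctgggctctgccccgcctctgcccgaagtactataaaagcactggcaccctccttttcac
The Irf7 window held neither set of letters, which says only that they are not in these 250 bases. Irf8 held GAS letters as well and is not printed, and Irf3, Irf5, Irf9 and Stat3 held neither motif. Translation that follows mTOR most closely is known for mRNAs that begin with a C and a run of pyrimidines. A start with C and at least 5 pyrimidines was annotated in 2.51% of all windows, in 19.2% of the 73 windows of ribosomal protein genes, and in 1 window of the members, that of Irf9 with 6 pyrimidines. The Irf7 start was a T followed by a purine. This holds for the RefSeq start only, since the locus given below for Irf7 reaches further upstream, to 141266481, into the printed stretch. With only 19.2% of ribosomal protein windows holding such a start, its absence from an annotated start does not show that the mRNA lacks it.

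Between 27800983 and 47725557 reads were counted per library, and the lowest count of a member was 765, so that counting error was small beside the spread between experiments. Levels are given below as CPM, which are counts scaled to a common library size with TMM factors over the 18 libraries, and between genes as CPM per kilobase of exon (RPKM). All 8 macrophage markers examined were present, Lyz2 at 7589 ± 534 CPM (SD, n = 3) in control total mRNA, and of 10 markers of fibroblasts, lymphocytes and epithelium only Pdgfrb was in the table, at 0.674 ± 0.109 CPM. Experiment 2 stood apart in its controls. The CPM summed over 28 ISGF3 target genes was 3755 in control total mRNA of experiment 2, against 1553 in experiment 1 and 2095 in experiment 3, and with LPS and torin1 it was 10200 against 5440 and 5729. Results are therefore given with and without experiment 2 where it matters, and the part of this difference in the members' values was not tested.

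In resting cells Irf5 was by far the most abundant of the 9 per length, at 75.9 to 101.5 RPKM in total mRNA. Irf7 followed at 19.4 to 51.4 RPKM and Irf9 at 15.9 to 18.97. The other 6 lay between 4.71 RPKM (Irf2) and 11.4 RPKM (Irf3), and Irf3, Irf1, Stat2, Stat3 and Irf8 were neighbours whose ranges overlapped. After LPS the order changed. Irf7 rose to the top at 145.5 to 270.4 RPKM, above Irf5 at 73.8 to 93.5, Stat2 at 41.1 to 46.3 and Irf9 at 25.9 to 34.8. Stat3 (24.2 to 34.5 RPKM) and Irf1 (25.7 to 32.1) were not separated from Irf9, and Irf8, Irf3 and Irf2 were lowest, at means of 15.0, 8.07 and 7.12 RPKM.

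**Figure D1:**
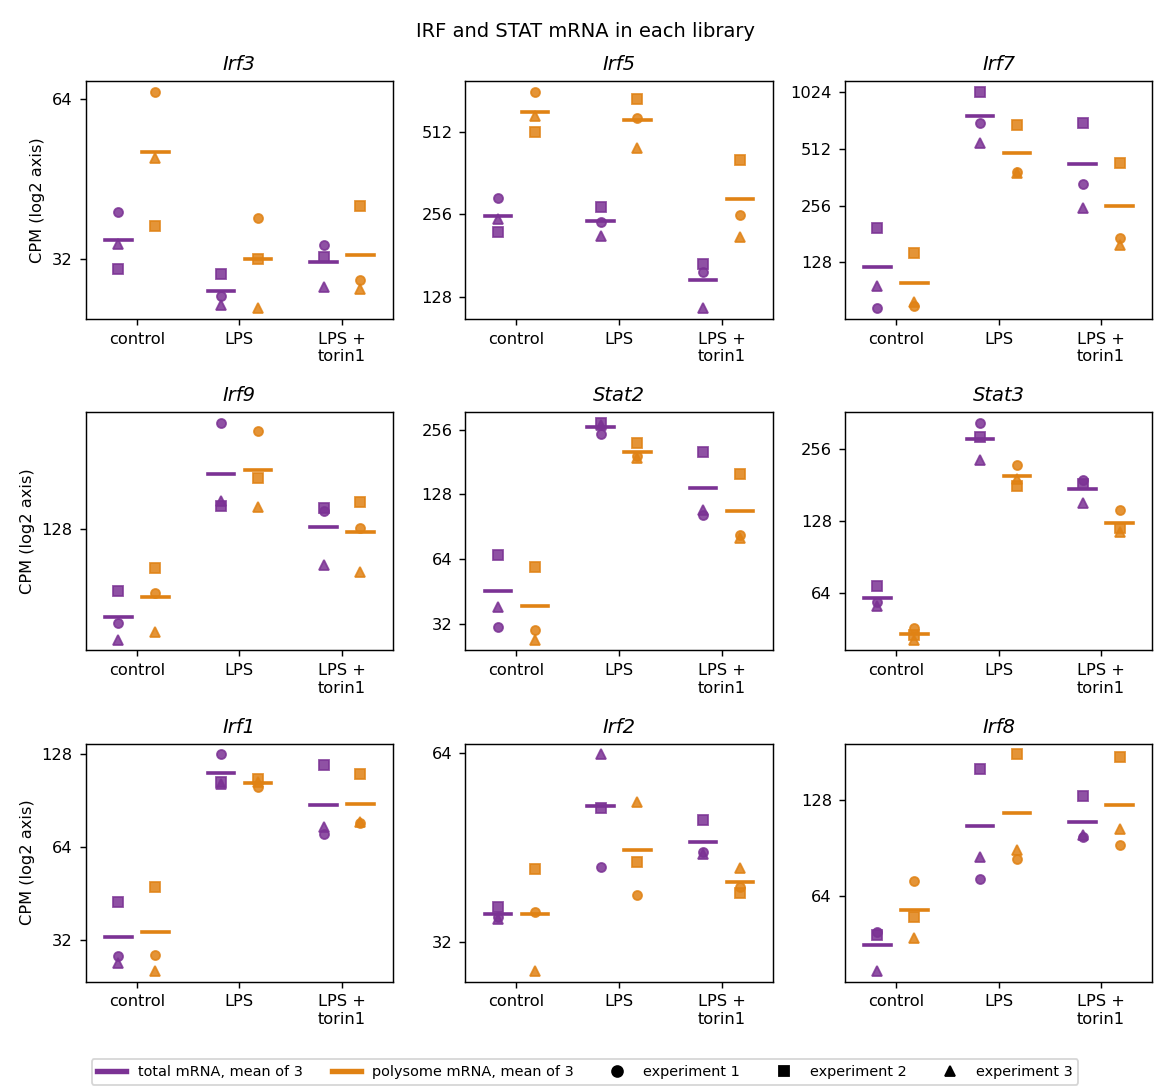
CPM of the 9 genes in each library on a log2 axis, by treatment, for total mRNA (purple) and polysome-associated mRNA (orange). Symbols are the 3 experiments and bars their means, and Irf7, Stat2 and Stat3 show the widest gap between control and LPS, while Irf5 stays level with LPS and is lower with torin1.

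LPS raised 7 of the 9 members in total mRNA, and the number was 7 for polysome-associated mRNA too, with Irf7, Stat2, Stat3 and Irf1 in front, and lowered Irf3. Calls were made with edgeR's quasi-likelihood test at a false discovery rate of 0.25, the threshold of the study's methods, which is lenient here. In total mRNA 8 of 9 members were called, against 66.5% of all genes, and 7 rose, against 32.2% of all genes. In polysome-associated mRNA it was again 8 of 9, against 55.1% of all genes, with 7 that rose against 26.4%. The median log2 fold change of the members was 1.23 in total and 1.01 in polysome-associated mRNA, beside −0.02 and −0.03 over all genes.

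Adding torin1 to LPS lowered 5 members in total mRNA (Irf5, Irf7, Irf9, Stat2 and Stat3) and 4 in polysome-associated mRNA (the same without Irf9), and none rose. These counts stand against 53.7% of all genes called in total mRNA, 26.4% called lower, and against 38.4% called in polysome-associated mRNA, 18.2% called lower. The member medians were −0.34 and −0.30, beside 0.00 over all genes in both kinds of mRNA. Without experiment 2 the counts were 7 in total mRNA, where Irf8 was then called higher, and 6 in polysome-associated mRNA. The share of all genes under that setting is not given here. Without experiment 3, only Irf5 and Stat3 were called in total mRNA. In polysome-associated mRNA a single member was called, Stat3 without experiment 1 and Irf5 without experiment 3. Calls over all genes fell too, from 6038 to 3959 in total mRNA without experiment 3. In polysome-associated mRNA they fell from 4322 to 1782 without experiment 1 and to 1187 without experiment 3. In bulk mRNA, fewer responding cells and less mRNA per cell cannot be told apart.

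**Figure D2:**
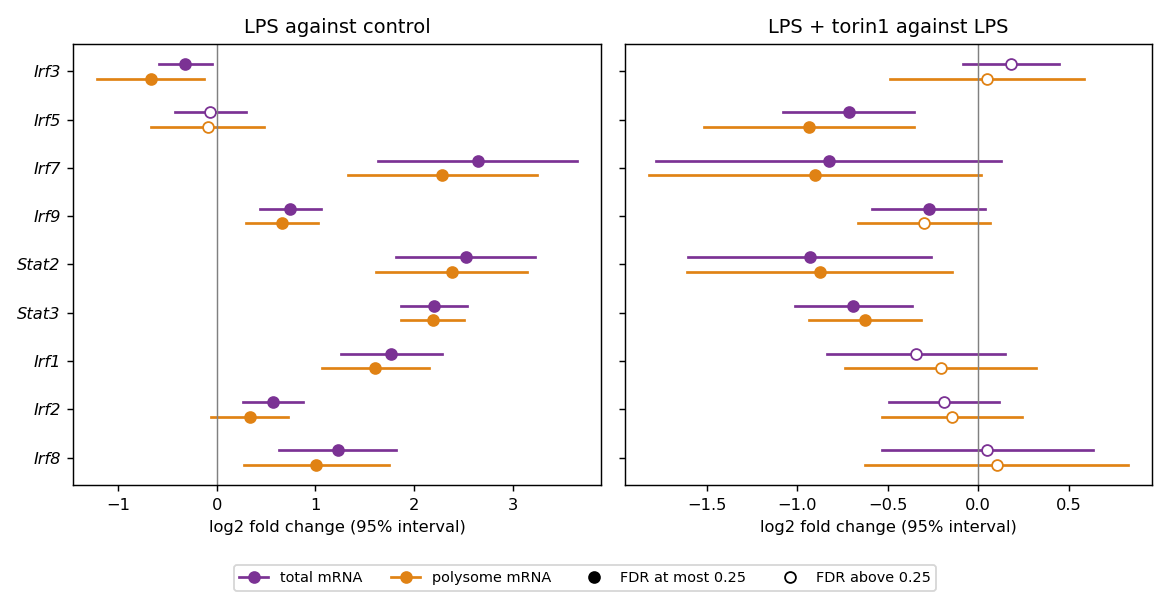
Log2 fold changes with 95% intervals from edgeR for total (purple) and polysome-associated (orange) mRNA, for LPS against control on the left and LPS and torin1 against LPS on the right. Filled points passed the false discovery rate of 0.25; the purple and orange intervals of each gene overlap in both panels, and on the left Irf7 is highest in total mRNA at 2.64 and Stat2 in polysome-associated mRNA at 2.38.

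Among the factors that act first, Irf3 is the constitutive IRF that Toll-like receptor 4 engages through TRIF (GRCm38 chr7:44997648-45002848, plus strand). Its total mRNA was 39.2, 30.6 and 34.2 CPM in control cells of experiments 1, 2 and 3, and 27.2, 29.9 and 26.2 CPM with LPS. The groups did not overlap, although experiment 2 differed by only −0.03 on the log2 scale. The fitted log2 change with LPS was −0.32 (SE 0.12, adjusted p = 0.0518) in total mRNA and −0.67 (SE 0.24, adjusted p = 0.0572) in polysome-associated mRNA, in which control libraries held 65.9, 36.9 and 49.6 CPM and LPS libraries 38.1, 32.0 and 25.8. The call was lost without experiment 1 in total mRNA (−0.19, adjusted p = 0.298) and without experiment 3 in polysome-associated mRNA (−0.54, adjusted p = 0.290). Torin1 gave no call for Irf3, at 0.18 (SE 0.12) and 0.05 (SE 0.24), while with the experiment as a block the first passed (0.18, adjusted p = 0.214). Its exons share 88 bases with those of Bcl2l12 on the opposite strand.

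Irf5 acts downstream of MyD88 and drives inflammatory cytokine genes in macrophages (chr6:29526625-29541871, plus strand). Total mRNA was 295, 221 and 246 CPM in controls, 241, 272 and 214 CPM with LPS, and 158, 169 and 116 CPM with LPS and torin1. Control and LPS libraries overlapped, and the libraries with torin1 lay below all others. LPS gave no call (−0.07, SE 0.16, in total and −0.09, SE 0.26, in polysome-associated mRNA). Torin1 lowered Irf5 by 0.72 on the log2 scale in total mRNA (−0.72, SE 0.16, adjusted p = 0.00933) and more variably in polysome-associated mRNA (−0.94, SE 0.26, adjusted p = 0.0391), where it went from 579, 675 and 448 CPM to 256, 406 and 213. The second of these calls was lost without experiment 1 (−0.83, adjusted p = 0.292). Irf5 shares 411 exon bases with Tnpo3 on the opposite strand, the longest such stretch among the members.

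Irf7, the interferon-inducible IRF that amplifies type I interferon (chr7:141262706-141266481, minus strand), showed the highest rise of the members in total mRNA and, after Stat2, the next highest in polysome-associated mRNA. In total mRNA, the controls held 73.2, 194 and 95.8 CPM and the LPS libraries 700.5, 1021 and 549. In polysome-associated mRNA, the controls held 75.5, 143 and 78.8 CPM and the LPS libraries 386, 681 and 379. No LPS library overlapped a control library in either kind of mRNA, and experiment 2 was the highest in each group. The log2 change was 2.64 (SE 0.45, adjusted p = 0.000896) in total and 2.29 (SE 0.43, adjusted p = 0.0024) in polysome-associated mRNA.

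With LPS and torin1, Irf7 was at 332, 698 and 250 CPM in total mRNA and at 173, 427 and 159 CPM in polysome-associated mRNA. Each experiment was lower than its own LPS library, by 1.08, 0.55 and 1.14 on the log2 scale in total mRNA (−1.08, −0.55 and −1.14) and similarly in polysome-associated mRNA (−1.16, −0.67 and −1.25), yet the groups overlapped because experiment 2 was high throughout. The fitted change was −0.83 (SE 0.43, adjusted p = 0.176) in total and −0.90 (SE 0.42, adjusted p = 0.175) in polysome-associated mRNA. In this fit, which does not pair the experiments, neither passed at a false discovery rate of 0.05, and both calls were lost without experiment 1 (adjusted p = 0.379 and 0.474) and without experiment 3 (0.393 and 0.481). Without experiment 2 they were −1.10 (adjusted p = 0.0153) and −1.18 (adjusted p = 0.00127). With the experiment as a block, which the numbering allows for total mRNA, the change there was −0.92 (SE 0.17, adjusted p = 0.00319). Irf7 shares 45 exon bases with Phrf1 on the opposite strand.

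Stat2, which encodes the ISGF3 part with a strong transactivation domain (chr10:128270559-128292849, plus strand) was at 31.2, 66.9 and 38.7 CPM in control total mRNA, at 243, 274 and 269 CPM with LPS, and at 102, 202 and 108 CPM with LPS and torin1. These groups did not overlap. In polysome-associated mRNA the values were 30.04, 59.0 and 27.2, then 193, 223 and 189, then 83.1, 160 and 80.7 CPM, again without overlap. LPS raised Stat2 by 2.52 (SE 0.32, adjusted p = 0.000121) and 2.38 (SE 0.35, adjusted p = 0.0005) on the log2 scale. Torin1 lowered it by −0.93 (SE 0.30, adjusted p = 0.0417) in total and −0.88 (SE 0.33, adjusted p = 0.105) in polysome-associated mRNA. Without experiment 3 the torin1 call was lost in total mRNA (adjusted p = 0.282), and in polysome-associated mRNA it was lost without experiment 1 (0.431) or experiment 3 (0.415). Neither call was lost without experiment 2, which fell least (−1.25, −0.44 and −1.315 in total mRNA of experiments 1, 2 and 3). On leaving out 1 experiment, the change ran from −1.28 to −0.77 in total and from −1.20 to −0.74 in polysome-associated mRNA.

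Irf9 (chr14:55603571-55610030, plus strand), which gives ISGF3 its DNA-binding specificity, moved less. Total mRNA was 91.0, 102 and 85.8 CPM in controls, 187, 139 and 142 CPM with LPS and 137, 138 and 112.4 CPM with LPS and torin1. LPS raised it by 0.75 (SE 0.14, adjusted p = 0.00159) in total and 0.66 (SE 0.16, adjusted p = 0.0111) in polysome-associated mRNA. The change with torin1 was called in total mRNA (−0.27, SE 0.14, adjusted p = 0.169), where experiment 2 differed by −0.01, and it just missed in polysome-associated mRNA (−0.30, SE 0.16, adjusted p = 0.251), where it passed without experiment 2 (−0.41, adjusted p = 0.144), with the experiment as a block (−0.30, adjusted p = 0.0989), with DESeq2's size factors (adjusted p = 0.227) or its Wald test (0.249) and with a filter on low counts (0.249). The call in total mRNA was lost without experiment 1 (−0.17, adjusted p = 0.444) and without experiment 3 (−0.25, adjusted p = 0.397). Exons of Irf9 overlap those of Rnf31 on the same strand.

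Stat3, which carries the signals of interleukin-6 and interleukin-10 (chr11:100885098-100939540, minus strand), rose with LPS with the lowest adjusted p of the members in both kinds of mRNA. Total mRNA was 59.0, 68.3 and 56.7 CPM in controls, 328, 288 and 230.3 CPM with LPS, and 190.1, 184 and 152 CPM with LPS and torin1. Polysome-associated mRNA was 45.6, 43.0 and 40.9, then 220.0, 180 and 191, then 142, 119.4 and 116 CPM. None of these groups overlapped within a kind of mRNA. LPS raised Stat3 by 2.20 (SE 0.15, adjusted p = 3.03e-06) and 2.19 (SE 0.15, adjusted p = 5.16e-06). Torin1 lowered it by −0.69 (SE 0.15, adjusted p = 0.00675) and −0.62 (SE 0.14, adjusted p = 0.0157), and only the polysome-associated call was lost on leaving out an experiment, the third (−0.58, adjusted p = 0.262). Stat3 shares 72 exon bases with Stat5a on the opposite strand.

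Irf1 and Irf2 bind the same elements, the first as an activator and the second mostly as a competitor. Irf1 (chr11:53770014-53778374, plus strand) went from 28.3, 42.5 and 26.9 CPM in control total mRNA to 127, 104 and 102 CPM with LPS, a log2 change of 1.77 (SE 0.23, adjusted p = 0.000146), and in polysome-associated mRNA it rose by 1.61 (SE 0.24, adjusted p = 0.000644). With LPS and torin1, total mRNA was at 70.5, 117.97 and 74.2 CPM. The experiments differed in direction, since experiment 2 was higher than its LPS library by 0.18 on the log2 scale and the others were lower (−0.85 and −0.46). The fitted change of −0.34 (SE 0.22, adjusted p = 0.274) was not called, nor was that of −0.21 (SE 0.24, adjusted p = 0.603) in polysome-associated mRNA. Without experiment 2, both passed, at −0.67 (adjusted p = 0.0199) and −0.39 (adjusted p = 0.0906), and with the experiment as a block the change in total mRNA passed too (−0.39, adjusted p = 0.0988). Exons of Irf1 overlap those of the predicted gene Gm17334 on the opposite strand.

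Irf2 (chr8:46739732-46847458, plus strand) was at 35.1, 36.4 and 34.8 CPM in control total mRNA and at 42.1, 52.3 and 63.6 CPM with LPS, without overlap. Its rise was 0.57 (SE 0.14, adjusted p = 0.00636) in total mRNA and 0.34 (SE 0.18, adjusted p = 0.171) in polysome-associated mRNA, where the groups overlapped. The second rested on experiment 3, which rose by 0.89 against 0.09 and 0.04 in the others, and it fell to 0.07 (adjusted p = 0.872) without it. It was also lost without experiment 1 (0.45, adjusted p = 0.287). Torin1 gave no call (−0.19, SE 0.14, and −0.14, SE 0.18). In total mRNA that change was called without experiment 1 (−0.30, edgeR adjusted p = 0.165), while without experiment 3 it was 0.0015.

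Irf8, the lineage factor of monocytes and macrophages (chr8:120736358-120756694, plus strand), was at 49.5, 48.6 and 37.5 CPM in control total mRNA and at 72.4, 160 and 84.9 CPM with LPS. It rose in all 3 experiments, by 1.23 in the fit (SE 0.27, adjusted p = 0.00372), and by 1.01 (SE 0.33, adjusted p = 0.0395) in polysome-associated mRNA. Experiment 2 rose most, by 1.68 in polysome-associated mRNA against 0.23 and 0.91, and without it that change was 0.53 (adjusted p = 0.0604). Torin1 gave no call, at 0.05 (SE 0.26, 95% interval −0.53 to 0.63) in total and 0.10 (SE 0.33, interval −0.63 to 0.83) in polysome-associated mRNA. Without experiment 2 the change in total mRNA was called, at 0.33 (adjusted p = 0.195).

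Compared with control, cells with LPS and torin1 had 8 of 9 members called in total mRNA, against 66.7% of all genes, and 8 of 9 in polysome-associated mRNA, against 58.2%. Irf7 remained above control by 1.82 (SE 0.44) and 1.38 (SE 0.42), Stat2 by 1.59 (SE 0.31) and 1.51 (SE 0.34), Stat3 by 1.51 (SE 0.15) and 1.56 (SE 0.14), and Irf1 by 1.43 (SE 0.23) and 1.40 (SE 0.24) on the log2 scale in total and polysome-associated mRNA. Irf8 was above control by 1.28 (SE 0.27) and 1.11 (SE 0.33). Irf5 was below control, by −0.78 (SE 0.16) in total and −1.03 (SE 0.26) in polysome-associated mRNA. In the latter, Irf3 (−0.62, SE 0.24) and Irf9 (0.36, SE 0.16) were called with all experiments and lost without experiment 1 (adjusted p = 0.504 and 0.324) or experiment 3 (0.317 and 0.279). This comparison shares its libraries with the preceding ones.

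The difference between polysome-associated and total mRNA of a lysate was examined next. It is relative to the average gene of the libraries and is not the fraction of an mRNA on polysomes. Fitted with the lysate as a block and called at a false discovery rate of 0.25 and a fold of at least 1.2, it was called for 4 of 9 members under each of the 3 treatments. Over all genes the share was 70.3% for control, 66.9% for LPS and 59.8% for LPS plus torin1. Irf5 was higher in polysome-associated mRNA throughout, by 1.25 (SE 0.11), 1.22 (SE 0.11) and 0.95 (SE 0.11) on the log2 scale in control, LPS, and LPS and torin1. Stat3 was lower throughout, by −0.50 (SE 0.11), −0.51 (SE 0.10) and −0.48 (SE 0.10). Irf3 (0.52, SE 0.13) and Irf8 (0.35, SE 0.11) were higher in control cells, and the second of these was lost without the lysate block (0.36, adjusted p = 0.365).

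For Irf7 the difference was 0.05, −0.44 and −0.28 in the controls of experiments 1, 2 and 3. After LPS it was −0.86, −0.58 and −0.53, and after LPS plus torin1 it was −0.94, −0.71 and −0.65. All LPS lysates were below all control lysates, with and without torin1. The fitted values were −0.23 (SE 0.11, adjusted p = 0.0949, under a fold of 1.2), −0.66 (SE 0.11, adjusted p = 0.000238) and −0.77 (SE 0.11, adjusted p = 0.00013). Without the lysate block, the value with LPS was −0.65 and no longer called (adjusted p = 0.269). Without experiment 1 the control value was −0.35 and called (adjusted p = 0.0325), and without experiment 2 it was −0.12. Stat2 showed −0.25 (SE 0.10, adjusted p = 0.0475, under a fold of 1.2) in control cells, which was called without experiment 1 (−0.33, adjusted p = 0.0618) or 2 (−0.28, adjusted p = 0.0777) and under DESeq2's scaling (−0.27). It showed −0.38 (SE 0.10, adjusted p = 0.005) with LPS and −0.35 (SE 0.10, adjusted p = 0.01) with LPS and torin1, the last 2 lost without the block (adjusted p = 0.387 and 0.458). The difference for Irf1, Irf2 and Irf9 passed in none of the treatments, and for Irf1 it lay between −0.10 and 0.03. For Irf2 it missed by the fold of 1.2 alone, at −0.23 (edgeR adjusted p = 0.0822) with LPS and −0.21 (adjusted p = 0.115) with LPS and torin1. The first was called without experiment 1 (−0.28, adjusted p = 0.148) and the second without experiment 3 (−0.28, adjusted p = 0.149).

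Translation efficiency, meaning the change of that difference between treatments, was not called for any member. With LPS against control, 0 of 11243 genes (0%) passed in edgeR, 164 had an unadjusted p under 0.05, and DESeq2's Wald test called 1 and the analysis of partial variance 10, none of them a member. Irf7 was the 1 member with an unadjusted p under 0.05 (−0.43, SE 0.16, unadjusted p = 0.0172, adjusted p = 1.00 in edgeR), and its experiments gave −0.90, −0.15 and −0.25. Without experiment 1 the value was −0.22 (adjusted p = 1.00). With LPS and torin1 against LPS, 25 genes (0.222%) were called, 0 of 9 members were among them, and no member had an unadjusted p under 0.05, while 303 of all genes did. The Irf7 value was −0.11 (SE 0.16, 95% interval −0.45 to 0.23, adjusted p = 0.993), with −0.08, −0.12 and −0.11 in the 3 experiments. With LPS and torin1 against control, 3 genes (0.0267%) and 0 members were called. Irf7 (−0.54, SE 0.16, unadjusted p = 0.00456) and Irf3 (−0.49, SE 0.19, unadjusted p = 0.0204) had an unadjusted p under 0.05 in edgeR, as did 820 of all genes, and on leaving out 1 experiment the Irf7 value ran from −0.68 to −0.30. Without experiment 2 that comparison called 3708 genes, among them Irf3, Irf5, Irf7 and Irf8 (−0.76, −0.48, −0.68 and −0.45).

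The 81 ribosomal protein genes show what the same test gave for a class whose mRNAs are mostly known to depend on mTOR. They were taken by name, which also took in paralogues such as Rpl3l, Rps27l and Rpl7l1, whose dependence on mTOR was not examined here. With torin1 added to LPS their polysome-associated mRNA fell for 66 of 81 and rose for none, and their total mRNA fell for 14. The shares called lower over all genes were 18.2% and 26.4%. Their translation efficiency was called lower for 20 of 81, with a median of −0.58 and values from −1.17 to 0.68, beside a median of −0.03 over all genes and of −0.02 over the members. That count was 0 without experiment 1, without experiment 3 and without the lysate block, 43 without experiment 2, 40 with DESeq2 and 5 with the analysis of partial variance, while the median stayed between −0.68 and −0.51. The upper end of that range was Rpl3l alone (0.68), followed by Rps27l (0.0187). Irf1, Stat2 and Stat3 had values above that of Rps27l, so the range covered all 9 members only through Rpl3l. The lowest value of a member was that of Irf5 (−0.27, interval −0.60 to 0.07). Irf1, Irf2, Stat2 and Stat3 had values above 0 (0.12, 0.01, 0.03 and 0.03), none of them called.

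**Figure D3:**
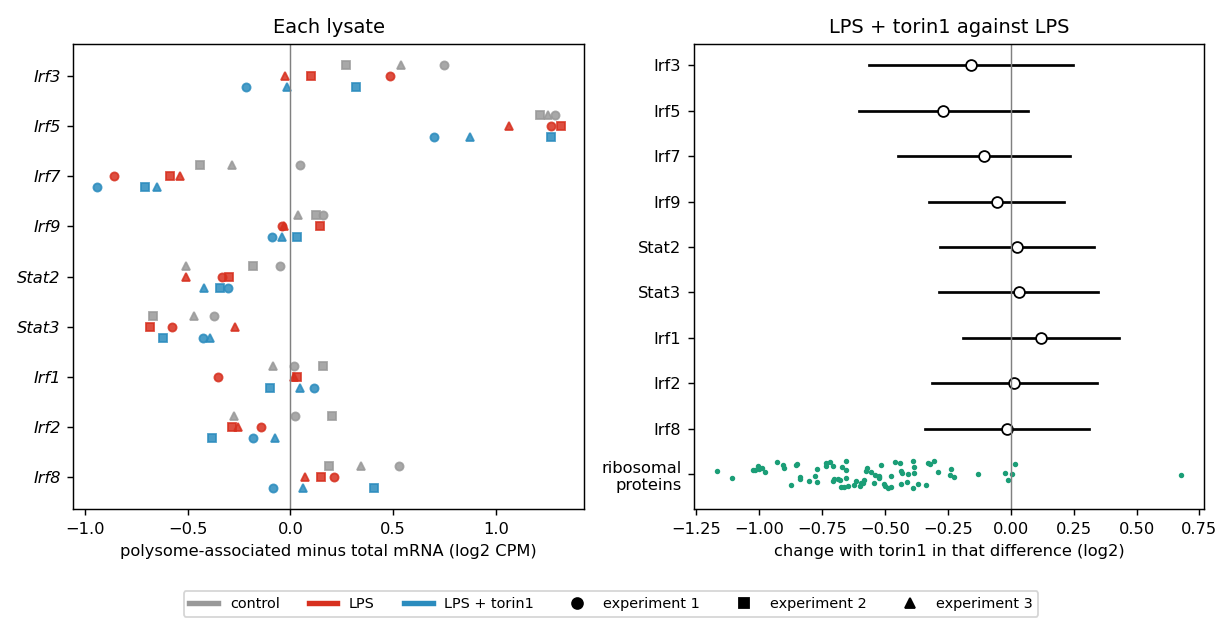
Left: log2 CPM of polysome-associated minus total mRNA in each of the 9 lysates, coloured by treatment, with symbols for the experiments; Irf5 lies to the right of 0, and Stat3 to the left of it, in every lysate. Right: the change of that difference with torin1 added to LPS, as edgeR values with 95% intervals for the members, none called, and as 1 point for each of the 81 ribosomal protein genes, whose median is −0.58.

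The proteins known to restrain translation of Irf7 also changed in mRNA. Oasl1 was at 82.2, 209 and 100.8 CPM in control total mRNA, at 1683, 1757 and 1579 CPM with LPS and at 462, 681 and 398 CPM with LPS and torin1. The log2 change was 3.68 (SE 0.35, adjusted p = 1.93e-05) with LPS and −1.70 (SE 0.32, adjusted p = 0.00372) with torin1, and its translation efficiency was not called (−0.03, SE 0.14). Eif4ebp2, which encodes 4E-BP2, fell with LPS (−0.79, SE 0.19, adjusted p = 0.0064) and rose with torin1 (0.48, SE 0.19, adjusted p = 0.0829) in total mRNA. Eif4ebp1, for 4E-BP1, passed with LPS in total mRNA (0.33, SE 0.21, adjusted p = 0.224), although experiment 3 went the other way, and did not pass in polysome-associated mRNA (0.22, SE 0.33) or with torin1 (0.00, SE 0.21). Of the 5 genes for 4E-BPs and eIF4F subunits, 1 rose and 2 fell with torin1 in total mRNA, among them Eif4e, the cap-binding subunit (−0.63, SE 0.13). Torin1 called 53.7% of all genes there.

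ISGF3 target genes moved in the direction of Stat2 and Irf7. All 28 rose with LPS in both total and polysome-associated mRNA, also without any 1 experiment. The medians were 2.35 and 2.39 with all experiments, 1.99 and 2.04 without experiment 1, and 2.92 and 3.05 without experiment 2. Of all genes, 32.2% and 26.4% rose. The list was chosen with earlier results of these data known, so its count is no independent support. The largest were Rsad2 (6.04, SE 0.76, in total mRNA), Ifit1 (5.28, SE 0.62) and the chemokine Cxcl10 (5.08, SE 0.54). With torin1, 24 fell in total mRNA, 17 fell in polysome-associated mRNA and none rose, against 26.4% and 18.2% of all genes called lower. The medians were −0.79 and −0.81, and the largest falls in total mRNA were Cxcl10 (−3.11, SE 0.49), Ifit3 (−2.22, SE 0.69) and Mx1 (−2.11, SE 0.62). The torin1 counts were 14 and 8 without experiment 1, 27 and 27 without experiment 2, and 9 and 4 without experiment 3. None was called in translation efficiency with torin1, where the median was 0.00. Under LPS, polysome-associated mRNA was below total mRNA for 15 of the 28 and above it for 6, while 66.9% of all genes were called in either direction.

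Of 9 other IRF and STAT genes and IRF2-binding partners, 8 were in the table. With LPS 4 rose and 3 fell in total mRNA, and with torin1 4 rose and none fell. Of all genes, 66.5% were called with LPS and 53.7% with torin1, so the torin1 count is near the share over all genes. Irf4, an IRF that restrains MyD88 signalling, rose with LPS (1.43, SE 0.36, in total mRNA) and again with torin1 (1.43, SE 0.34). Irf2bp2, for a corepressor that binds IRF2, fell with LPS (−1.18, SE 0.13) and rose with torin1 (0.95, SE 0.13). Of the genes for STAT5, which acts downstream of GM-CSF, Stat5a rose with LPS (0.98, SE 0.18) and Stat5b with torin1 (0.70, SE 0.13) in total mRNA.

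Upstream of the IRFs, 17 adaptors and kinases were measured, of which 11 rose and 4 fell with LPS in total mRNA. Of all genes, 66.5% were called there and 32.2% rose. Ikbke, which encodes an IRF3 and IRF7 kinase, rose by 2.76 (SE 0.14), and Ticam1, which encodes TRIF, by 1.72 (SE 0.13). With torin1 4 rose and 4 fell, among them Ticam2 (1.35, SE 0.17) and Myd88 (−0.88, SE 0.15). This count is no larger than the share of 53.7% called over all genes. Of 15 ligands, receptors and Janus kinases 13 were in the table, where 6 rose and 4 fell with LPS, a count near the share of 66.5% over all genes. Il10, whose receptor signals through STAT3, rose by 5.23 (SE 0.65) and fell with torin1 (−2.36, SE 0.55), Il10ra rose by 2.43 (SE 0.12) and Jak2 by 1.81 (SE 0.16). Ifnb1 and Il6 were not analysed here.

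Of 17 negative regulators 15 were in the table, and 8 rose and 2 fell with LPS in total mRNA, while 3 rose and 9 fell with torin1. The LPS count is near the share of 66.5% called over all genes. Torin1 called 53.7% of all genes, 26.4% lower. Socs3, the feedback inhibitor of STAT3 signalling, rose by 6.89 (SE 0.18) and fell with torin1 (−1.06, SE 0.14), and Socs1 rose by 3.22 (SE 0.36). Of 12 STAT3 target genes 10 were in the table. With LPS 9 rose in total mRNA, against 32.2% of all genes, and none fell. The largest were Il1rn, the interleukin-1 receptor antagonist (5.92, SE 0.30), Il4ra (3.96, SE 0.31) and Pim1 (3.78, SE 0.30). With torin1 they were divided, with 3 that rose and 5 that fell, and Pim1 (0.94, SE 0.27) and Il4ra (−1.59, SE 0.28) went opposite ways. In none of these lists was a gene called in translation efficiency with torin1, where 0.222% of all genes were called.

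Over the 18 libraries, which share lysates and experiments in pairs and threes, the log2 CPM of Irf7 was most like that of Stat2 (Pearson r = 0.973), Ifit2 (0.972) and Mx1 (0.970). Stat2 was most like Ifit3b (r = 0.990), Irf9 most like Ifi35 (0.947) and Irf1 most like Znfx1 (0.985), all interferon-inducible genes. The nearest genes of the others were Rsbn1 for Stat3 (0.990), Sdf2l1 for Irf5 (0.980), Triobp for Irf8 (0.955), Tbcc for Irf3 (0.908) and Frmd4a for Irf2 (0.854). These values describe the libraries and follow mainly from the groups.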

How the data were processed

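The authors sequenced stranded, ribosomal RNA-depleted libraries, and used Hisat2 (build GRCm38) and featureCounts on Ensembl genes, inside a nextflow pipeline at its defaults. Protein-coding genes with no 0 in a library were kept. Whether counting used strand is not given in the sources used here, so reads of overlapping genes could be split either way. The deposited values are raw counts of 11243 genes, not normalized. Experiment numbers come from the labels. The study calls the experiments independent, but they come from one cell line.

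From these counts, edgeR 4.0.16 in R 4.3.3 (TMM, quasi-likelihood test, Benjamini-Hochberg adjustment over all genes) was fitted to the 9 libraries of each kind of mRNA with the treatment as the only term, called at an FDR of 0.25. Translation efficiency was fitted over the 18 libraries with the lysate as a block, called at the same FDR and a fold of at least 1.2. The SE is the log2 fold change divided by the square root of F. The study used anota2seq, which was not run here, and limma 3.58.1 was used for an analysis of partial variance in its place. CPM were scaled by TMM over the 18 libraries, with a prior count of 0.5 for differences within an experiment, and RPKM used the exon union of an annotation of GRCm38. Promoter windows came from RefSeq (GRCm38.p6). No protein sequence was used here.

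The 9 members were named in every comparison. For each other gene list, counts were given with up to 3 called genes, those of largest change among genes with 1 direction in all experiments, and Oasl1, Eif4ebp1 and Eif4ebp2 were named in any case. Likeness was ranked by Pearson's r of log2 CPM. The members and lists were chosen with earlier results of these data known. An item of the list of other IRF and STAT genes is not reported here and was left out of its counts.

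Deviations of same-numbered libraries from their group means correlated at 0.149 or more in every pair of total mRNA, at 0.389 or more between total and polysome-associated mRNA of a lysate, and at −0.0923 or more between treatments in polysome-associated mRNA, so that the numbers were taken to pair the total mRNA and the lysates. Alternatives were DESeq2's size factors and its Wald test (1.42.0), a mean of at least 10 counts, an FDR of 0.05, each experiment left out, only the 2 treatments compared, the experiment as a block, no lysate block, and the analysis of partial variance. Scripts were tested on simulated data.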

Additional observations from a re-analysis of the deposited data

How the results depend on the processing

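Of 945 member values recomputed under the alternatives, 845 kept their direction and their side of the threshold, 33 lost a call, 30 gained one and 37 changed sign, none of them a called value. The calls for Irf7, Stat2, Stat3, Irf1, Irf8 and Irf9 with LPS held under every alternative in both kinds of mRNA. With 3 experiments and a main fit that does not pair them, the torin1 calls are the least certain. The spread in that fit includes the differences in level between experiments. The cause of the changes below was not tested.

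At an FDR of 0.05, torin1 lowered 3 members in total and 2 in polysome-associated mRNA. At the FDR of 0.25, on leaving out 1 experiment, the members called with torin1 ran from 2 to 7 (the 7 with Irf8 called higher) and from 1 to 6, and the count for translation efficiency with LPS and torin1 against control from 0 to 4. DESeq2's Wald test lost the torin1 call of Irf7 in total mRNA (adjusted p = 0.255). Without the lysate block, 2 members differed between polysome-associated and total mRNA under LPS. With the experiment as a replicate block, the torin1 change of Irf7 in total mRNA was −0.92 (adjusted p = 0.00319). Irf1 was then called lower and Irf3 higher, for 7 members in all, and no other call in total mRNA changed. In polysome-associated mRNA, where 7 of 9 libraries correlated best with one of their own number, the block moved the torin1 count from 4 to 5. The shares of all genes called with the experiment as a block, and between polysome-associated and total mRNA without the lysate block, are not given here, so these counts are not set against them.

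Over all genes, torin1 called 6038 in total mRNA, 3279 at an FDR of 0.05 and 3959 without experiment 3. In polysome-associated mRNA it called 4322, but 1557 at an FDR of 0.05, 1782 without experiment 1 and 1187 without experiment 3. LPS called 6191 there, 3654 at an FDR of 0.05 and 3901 without experiment 1, and LPS and torin1 against control called 6546, 3950 and, without experiment 3, 4156. Translation efficiency with torin1 was called for 25 genes, 16 with DESeq2's size factors, 45 with its Wald test, 4 at an FDR of 0.05, 0 without the lysate block and 0 to 115 without 1 experiment. Against control it was 3, then 0, 35, 0, 0 and 0 to 3708, and 14 with the analysis of partial variance. For LPS against control, 2 genes were called without experiment 2.

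None of the values that turned in sign was called in either form. With DESeq2's size factors in edgeR and with its Wald test, the translation efficiency of Irf8 with torin1 against LPS was 0.0366 and 0.0367 (0.0283 without the lysate block), that of Irf1 against control 0.0291 and 0.0286, and polysome-associated against total Irf9 under LPS −0.0045 in both (−0.004494 and −0.004487). The analysis of partial variance gave 0.093 for Irf1 and 1.38 for Stat3 with LPS, −0.0277 for Irf2, 0.0141 for Irf5 and −0.40 for Stat3 with torin1 against LPS, and 0.17 for Irf1 and 0.0019 for Irf5 against control. On leaving out 1 experiment, Irf5 with LPS ran from −0.25 to 0.0722 in total and from −0.36 to 0.0418 in polysome-associated mRNA. With torin1 against LPS, Irf2 ran from −0.30 to 0.0015 and Irf8 from −0.0881 to 0.33 in total mRNA, and Irf3 from −0.14 to 0.27 in polysome-associated mRNA. Translation efficiency with LPS ran from −0.10 to 0.0392 for Irf5 and from −0.11 to 0.0743 for Stat3. With torin1 against LPS it ran from −0.0114 to 0.25 for Irf1, −0.0674 to 0.0802 for Irf2, −0.35 to 0.16 for Irf3, −0.15 to 0.17 for Irf8 and −0.0054 to 0.0635 for Stat2. Against control it ran from −0.0841 to 0.12 for Irf1 and −0.0020 to 0.0856 for Stat3. Polysome-associated against total mRNA ran from −0.0332 to 0.0909 for Irf1 and −0.13 to 0.11 for Irf2 in control cells, −0.17 to 0.0147 for Irf1 and −0.0349 to 0.0525 for Irf9 under LPS, and −0.12 to 0.18 for Irf3, −0.0122 to 0.26 for Irf8 and −0.0638 to 0.0266 for Irf9 under LPS and torin1.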

Other observations

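Among the 8 macrophage markers, 5 rose and 1 fell with LPS in total mRNA, and 3 rose and 3 fell when torin1 was added. The shares called over all genes were 66.5% and 53.7%. Fcgr1, the high-affinity receptor for IgG and itself interferon-inducible, rose with LPS by 2.44 on the log2 scale (SE 0.54) and fell with torin1 (−2.87, SE 0.55), from 322 ± 68.9 to 43.9 ± 40.1 CPM (SD, n = 3), a larger drop than that of any IRF or STAT gene described above. Csf1r, the receptor for the macrophage growth factor CSF1, fell with LPS (−0.93, SE 0.11) and again with torin1 (−0.55, SE 0.11), while Adgre1, which encodes F4/80, rose with torin1 (0.54, SE 0.22). Summed over the 8 markers, total mRNA held 11080 to 11960 CPM in control cells, 9869 to 11890 with LPS and 8374 to 9461 with LPS and torin1. These values move with the treatments beside those of the IRF and STAT genes, and their part in them was not tested.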
